A study of Homo sapiens with 12 samples.

Results

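The genes described here are 10 factors of the Wnt signalling pathway and of the TLE co-repressor family: the ligand WNT5A, the co-repressors TLE1, TLE3 and TLE4, the DNA-binding factors LEF1, TCF7 and TCF7L2, and the feedback genes AXIN2, RNF43 and ZNRF3. They were found by their gene symbols, and each symbol matched 1 of the 60106 genes in the deposited tables. Their RNA was counted in 12 libraries of PC3 and VCaP, established cell lines of prostate cancer, transfected with siRNA that was either non-targeting (NSI) or directed at FOXA1 (siFOXA1). Each line had 3 NSI and 3 siFOXA1 libraries, and RNA was taken 72 h after transfection. The series, by its title, is about FOXA1 and splicing. PC3 cells grew in RPMI-1640, received 20 nM siRNA, and were sequenced as polyadenylated RNA with a stranded mRNA kit whose counts ignored strand. VCaP cells grew in DMEM, received 40 nM siRNA, and were sequenced as total RNA with counts on the reverse strand. Cell line, siRNA dose, medium, library kit and strand setting therefore changed together and cannot be told apart. PC3 was derived from a bone metastasis, and VCaP from a vertebral metastasis that carries a rearranged ERG gene. The labels do not say whether replicates came from separate cultures, so p-values measure only the spread between these libraries, which may be technical.

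In canonical Wnt signalling, a ligand bound to a Frizzled receptor halts the destruction complex that degrades beta-catenin, and beta-catenin then joins a TCF/LEF factor on target genes. TCF/LEF factors without beta-catenin recruit TLE proteins, the human counterparts of fly Groucho, which repress transcription. AXIN2, RNF43 and ZNRF3 are targets of the pathway that act back on it. FOXA1, the forkhead factor lowered by the siRNA, opens chromatin for other transcription factors in luminal prostate cells, and TLE proteins can also bind forkhead factors.

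FOXA1 itself checked the labels. Its level ranged from 246.5 to 296 CPM (counts scaled to a common library size) in PC3 NSI and from 164 to 184 CPM in PC3 siFOXA1, and the mean was 63.8% of the NSI level. In VCaP it ranged from 458 to 544 CPM in NSI and from 73.6 to 85.2 CPM in siFOXA1, and the mean was 16.5% of the NSI level. FOXA1 fell in both lines, by 0.65 (log2; SE 0.10, edgeR quasi-likelihood adjusted p 0.0022) in PC3 and by 2.60 (SE 0.09, adjusted p 1.84e-07) in VCaP. For both lines the exact two-sided permutation test returned p 0.1, the lowest value possible with 3 libraries a group. PC3 libraries totalled 123140099 to 188226483 counts, and VCaP libraries 48187047 to 59839211. Mitochondrial genes took 3.02% to 3.29% of the counts in VCaP NSI and 4.04% to 4.69% in VCaP siFOXA1, without overlap, and 13.1% to 15.7% in PC3 NSI and 13.4% to 14.9% in PC3 siFOXA1. The line markers TMPRSS2 and ERG averaged 0.355 and 0.0292 CPM in PC3 NSI against 117 and 238 CPM in VCaP NSI, and VIM averaged 740 CPM in PC3 NSI against 0.257 CPM in VCaP NSI. VIM belongs to a list of 6 markers chosen for PC3, of which KRT8 (126 against 230 CPM) and EPCAM (23.8 against 167 CPM) were higher in VCaP NSI. Of 5 fibroblast markers, all 3 that were tested in PC3 rose there (their list summed to 23.2 to 28.3 CPM in NSI and 43.9 to 49.0 CPM in siFOXA1), and in VCaP 1 of 4 fell (10.8 to 20.2 CPM and 1.43 to 7.48 CPM). In the interferon list, 10 of 10 genes rose in PC3 siFOXA1, where their sum went from 293 to 435 CPM in NSI to 4416 to 4560 CPM. In VCaP 6 of the 8 interferon genes tested rose and 2 fell, and the sum was 92.3 to 100.3 CPM in NSI and 81.6 to 91.4 CPM in siFOXA1. The part of these differences in the values below was not tested.

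Because the siRNA targeted a forkhead factor, the 250 bases before each start site were searched on both strands for a forkhead core, TAAACA, its longer form GTAAACA, a TCF/LEF core, CTTTGA, and its longer form CTTTGAT. The windows came from the RefSeq promoter table (GRCh38.p14), which matched 8 of the 10 genes with 16 windows, and each was placed on GRCh37 by its only exact match. AXIN2 and ZNRF3 were not matched. TAAACA was found in 4 of the 16 windows, 1 each of TLE3, LEF1, TCF7 and TCF7L2, and in 11.02% of all 34788 promoter windows. Counted by gene, 4 of 8 genes held it in at least 1 window, against 13.16% of all genes in the table. A gene with more windows had more chances of a match, and the count by gene was not adjusted for windows per gene. GTAAACA, which contains TAAACA, was in the TCF7 window alone and in 2.98% of all windows. CTTTGA was in 2 of the 16 windows, both of TLE4, against 11.2% of all windows, and CTTTGAT was in 0 of the 16 against 2.27%. To show the letters that were counted, the 4 forkhead matches and the TLE4 match that lies on no exon are written out on each gene's strand, 5′ to 3′, with the match in capitals (the reverse complement where it lay on the other strand). A match is a description of the letters and not a binding site. The start sites next to the LEF1 and TCF7 matches lie inside the annotated span of the gene, as those of TLE3 and TLE4 do.
TLE3, chr15:70387156-70387215, minus strand, 62 bases before a start site inside the gene, on no annotated exon: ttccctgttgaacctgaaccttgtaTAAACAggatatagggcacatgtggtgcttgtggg
TCF7L2, chr10:114709905-114709964, plus strand, 76 bases before a start site, on no annotated exon: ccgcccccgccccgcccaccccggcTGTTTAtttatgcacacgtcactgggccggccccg
LEF1, chr4:109087465-109087494, minus strand, 25 bases before a start site, on an annotated exon: cattttgggtttTAAACAgcgcgtttaaga
TCF7, chr5:133451269-133451298, plus strand, 23 bases before a start site, on an annotated exon: acctttataggaGTAAACAgacccccgcca
TLE4, chr9:82187953-82188012, plus strand, 114 bases before a start site inside the gene, on no annotated exon: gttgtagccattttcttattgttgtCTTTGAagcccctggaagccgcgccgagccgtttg

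With NSI, TLE3 was the most abundant full-length TLE gene in both lines, while the leading TCF/LEF gene was TCF7L2 in PC3 and LEF1 in VCaP. Levels are compared between genes here as CPM per kb of exon, as mean ± SD of 3 NSI libraries. In PC3, TCF7L2 led with 25.4 ± 4.49, followed by TLE3 with 9.40 ± 0.39, TLE1 with 7.92 ± 0.57 and WNT5A with 6.23 ± 0.33. TCF7 stood at 3.39, TLE4 at 2.31 and ZNRF3 at 1.70, and RNF43, AXIN2 and LEF1 were lowest, at 0.378, 0.353 and 0.155. RNF43 and AXIN2 were the only neighbours in that order whose PC3 libraries overlapped. In VCaP, TLE3 led with 40.2 ± 0.21 and LEF1 followed with 19.8 ± 0.76. RNF43, WNT5A, TLE1, TCF7L2 and ZNRF3 came next, from 3.23 down to 2.47, and each overlapped its neighbour in that run. AXIN2 at 0.744, TLE4 at 0.339 and TCF7 at 0.224 closed the VCaP order without overlap. LEF1 thus ranked last of the 10 genes in PC3 and second in VCaP, and TCF7L2 ranked first in PC3 and sixth in VCaP, although no test between lines was made on levels because the library kits differed.

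**Figure D1:**
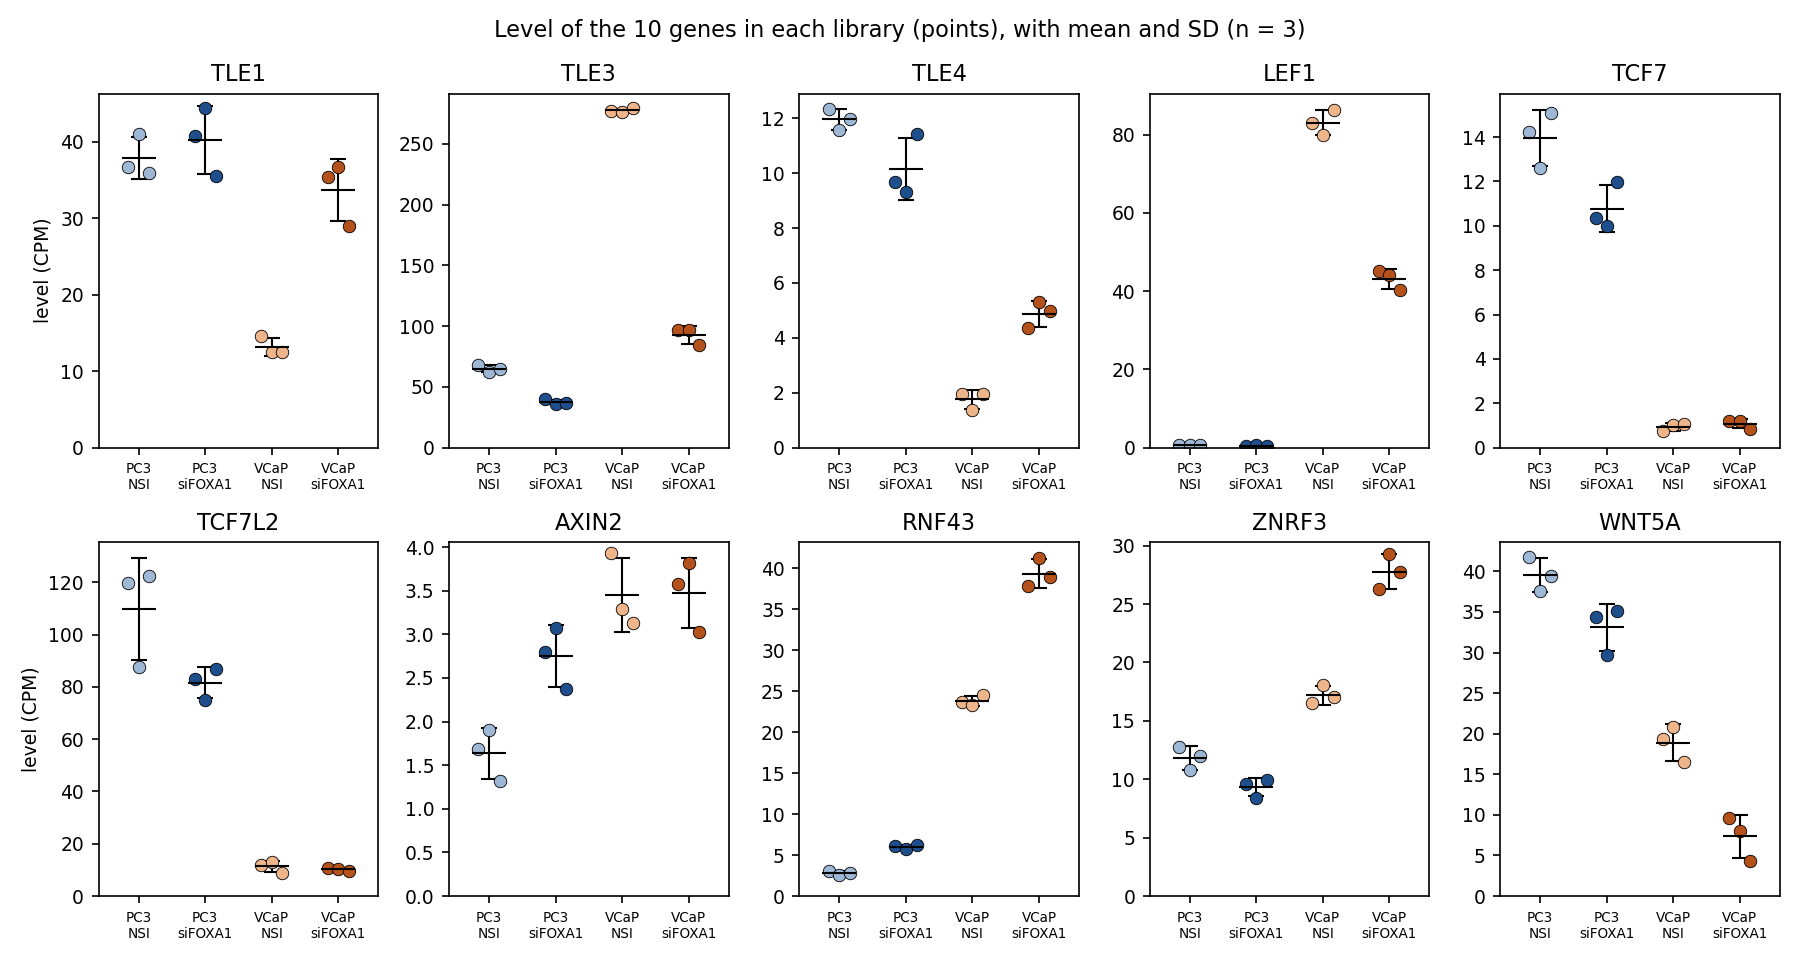
Level of each of the 10 genes in CPM (y axis, linear, from 0, with its own range per gene) in each library (points) by line and siRNA, with the mean and SD of 3 libraries. TLE3 fell in both lines, from 65.0 to 37.5 CPM in PC3 and from 278 to 92.6 CPM in VCaP, while TLE1 and TLE4 rose in VCaP and LEF1 stayed under 1 CPM in PC3.

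All 10 genes passed the filter on low counts in each line, with 72 or more counts per library in PC3 and 38 or more in VCaP. In PC3, 6 of the 10 changed in siFOXA1 against NSI (2 higher, 4 lower), where 27.0% of all 26435 genes tested were called (15.0% higher, 12.1% lower). The PC3 fit here, and each fit without 1 library, did not pair the libraries. Blocking on the replicate number, which treats same-numbered PC3 libraries as pairs, gave 8 of the 10 called and 11297 genes in all. With that block the edgeR adjusted p was 0.0028 for TCF7, 0.0014 for TCF7L2 and 0.0059 for ZNRF3. With library size alone or upper-quartile factors as scaling, the PC3 calls were TLE3, AXIN2 and RNF43 only. Leaving out 1 library gave 3 calls without NSI replicate 1 or siFOXA1 replicate 2 and 2 calls, TLE3 and RNF43, without NSI replicate 3 or siFOXA1 replicate 1. In VCaP, 7 of the 10 changed (4 higher, 3 lower), where 45.8% of all 22925 genes tested were called (22.5% higher, 23.3% lower). The median log2 fold change of the 10 was −0.30 in PC3 and 0.11 in VCaP, and that of all genes tested was 0.02 in each line. Library groups did not overlap for 9 of the 10 in PC3, against 44.4% of all genes tested there, and for 7 of the 10 in VCaP, against 55.9%. TLE3, RNF43 and ZNRF3 were called in both lines, against 15.7% of the 19261 genes tested in both. TLE3 and RNF43 moved the same way, against 10.7% of those genes, and ZNRF3 moved in opposite directions. In bulk RNA a lower level can come from fewer cells that express a gene or from less RNA per cell, and these cannot be told apart.

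**Figure D2:**
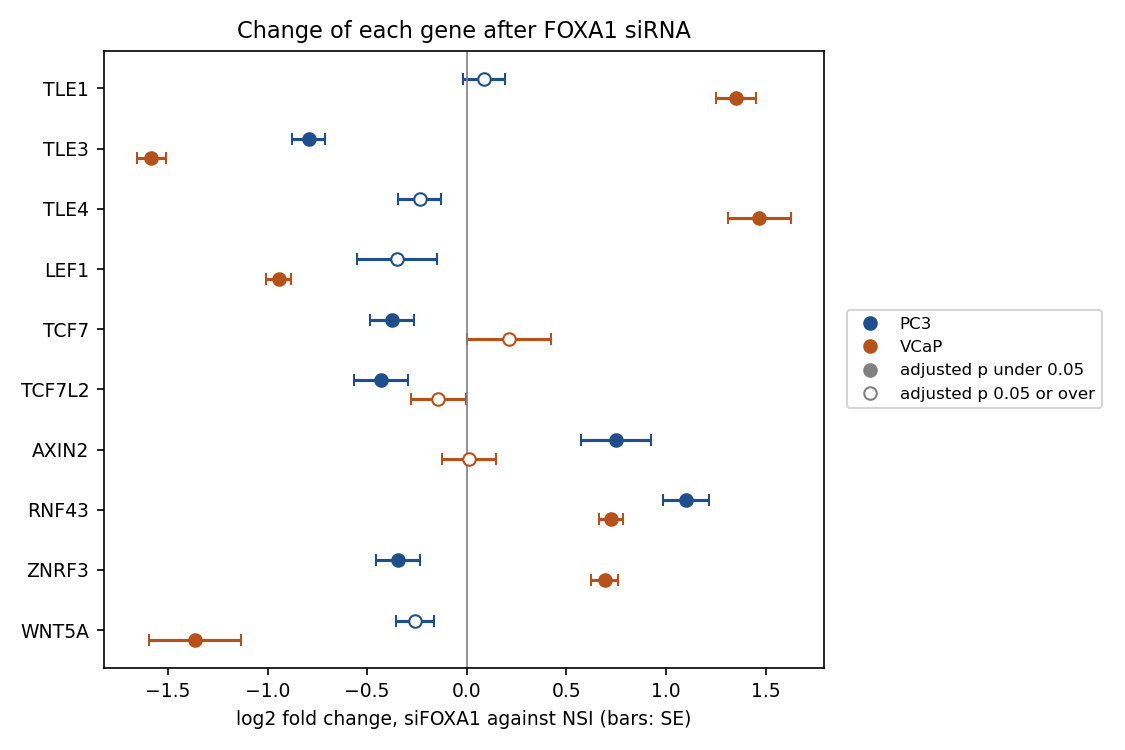
Log2 fold change of siFOXA1 against NSI (x axis) with its SE for the 10 genes in PC3 (blue) and VCaP (orange), filled where the edgeR adjusted p was under 0.05. TLE1 and TLE4 lie at 1.35 and 1.47 in VCaP and at 0.09 and −0.24 in PC3, and ZNRF3 lies on opposite sides of 0.

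WNT5A encodes a secreted ligand that signals mostly outside the beta-catenin route, through receptors such as ROR2. The gene (ENSG00000114251.14_3) lies on the minus strand of chromosome 3, from 55499743 to 55523973 on GRCh37, the build of all gene coordinates given here. VCaP libraries held WNT5A at 19.4, 20.9 and 16.5 CPM with NSI and at 9.61, 8.07 and 4.38 CPM with siFOXA1. The values follow the replicate order 1 to 3, here and for the other genes. The highest siFOXA1 library was below the lowest NSI library, and siFOXA1 replicate 3 lay lowest. WNT5A fell by 1.36 on the log2 scale (SE 0.23, edgeR adjusted p 0.0011), to 38.9% of the NSI mean, and by 1.10 without siFOXA1 replicate 3. WNT5A levels in PC3 were 41.8, 37.5 and 39.4 CPM with NSI and 34.4, 29.7 and 35.1 CPM with siFOXA1. The PC3 groups did not overlap, but the log2 fold change of −0.26 (SE 0.10) did not pass the test (adjusted p 0.077). With the replicate block it was −0.26 (adjusted p 0.0083) and passed, as it did without NSI replicate 2 (−0.30, adjusted p 0.0497). The difference of the effects, VCaP minus PC3, was −1.09 (SE 0.27, adjusted p 0.0084 for the interaction).

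TLE3 encodes a full-length Groucho co-repressor, and it fell in both lines under all 15 alternatives run in each. The gene (ENSG00000140332.15_3) lies on the minus strand of chromosome 15, from 70340129 to 70390515. TLE3 levels in PC3 were 67.7, 62.3 and 64.9 CPM with NSI and 39.6, 36.2 and 36.7 CPM with siFOXA1. VCaP libraries held TLE3 at 277, 277 and 279 CPM with NSI and at 97.0, 96.7 and 84.2 CPM with siFOXA1. The groups lay far apart in both lines, and siFOXA1 replicate 3 was the lowest VCaP library. TLE3 fell by 0.79 (log2; SE 0.08, edgeR adjusted p 0.00031) to 57.7% of the NSI mean in PC3. In VCaP it fell by 1.58 (SE 0.07, adjusted p 4.96e-07) to 33.3%. The VCaP effect was the larger, with an interaction of −0.77 (SE 0.12, adjusted p 0.00021).

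TLE1 encodes a co-repressor of the same full-length type, and it rose in VCaP. The gene (ENSG00000196781.14_3) lies on the minus strand of chromosome 9, from 84198598 to 84304220. VCaP libraries held TLE1 at 14.6, 12.5 and 12.6 CPM with NSI and at 35.4, 36.6 and 29.0 CPM with siFOXA1, so the groups were separate. TLE1 rose to 255% of the NSI mean, a log2 fold change of 1.35 (SE 0.10, edgeR adjusted p 7.81e-06). TLE1 levels in PC3 were 36.6, 40.9 and 35.9 CPM with NSI and 40.7, 44.4 and 35.6 CPM with siFOXA1. The PC3 groups overlapped, and the log2 fold change of 0.09 (SE 0.11, adjusted p 0.566) did not pass, turning to −0.02 without siFOXA1 replicate 2. The interaction was 1.28 (SE 0.15, adjusted p 1.63e-05).

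TLE4, the third full-length co-repressor among the 10 genes, also rose in VCaP, from a low level. The gene (ENSG00000106829.18_3) lies on the plus strand of chromosome 9, from 82186688 to 82341797. VCaP libraries held TLE4 at 1.96, 1.35 and 1.95 CPM with NSI and at 4.37, 5.29 and 4.97 CPM with siFOXA1, on 68 to 266 counts per library. All siFOXA1 libraries were higher than all NSI libraries, and TLE4 rose to 278% of the NSI mean (log2 fold change 1.47, SE 0.16, edgeR adjusted p 6.87e-05). TLE4 levels in PC3 were 12.3, 11.6 and 12.0 CPM with NSI and 9.69, 9.33 and 11.4 CPM with siFOXA1. These groups did not overlap, although siFOXA1 replicate 3 came close to NSI replicate 2. The PC3 log2 fold change of −0.24 (SE 0.11, adjusted p 0.134) did not pass, whereas with the replicate block it was −0.24 with an adjusted p of 0.0436. The interaction, 1.73 (SE 0.20, adjusted p 1.47e-05), had the largest size among the 10 genes.

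The make-up of the TLE transcripts therefore differed between the groups, as the stacked levels show. In VCaP the summed level of TLE1, TLE2, TLE3 and TLE4 was 43.6 ± 0.34 CPM per kb in NSI and 21.7 ± 1.78 in siFOXA1 (SD, n = 3). TLE3 held 91.5% to 92.6% of that sum in the NSI libraries and 61.1% to 62.3% in the siFOXA1 libraries. TLE1 held 6.0% to 6.96% in NSI and 30.9% to 33.5% in siFOXA1, and TLE4 held 0.61% to 0.87% and 3.74% to 4.89%. TLE3 was still the most abundant of these genes in VCaP siFOXA1. In PC3 the sum was 22.3 ± 0.43 CPM per kb in NSI and 18.6 ± 1.07 in siFOXA1. The PC3 share of TLE3 was 39.6% to 44.1% in NSI and 26.9% to 30.5% in siFOXA1, and that of TLE1 was 34.3% to 37.6% and 42.7% to 47.7%. TLE1 thus stood above TLE3 in PC3 siFOXA1, with 8.43 ± 0.93 against 5.43 ± 0.26 CPM per kb, and below it in PC3 NSI. None of the shares given above overlapped between the groups within a line. Overlap was seen for the PC3 share of TLE4 (9.81% to 10.7% in NSI, 9.26% to 12.7% in siFOXA1). The VCaP share of TLE2 overlapped too (0.68% to 0.92% in NSI, 0.86% to 2.15% in siFOXA1). Shares are a description of levels already tested gene by gene, and a share can rise when other members of the sum fall.

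Among the other family genes, TLE2, a further full-length co-repressor, had a log2 fold change of 0.07 (edgeR adjusted p 0.716) in PC3 and −0.25 (0.498) in VCaP. AES (TLE5), the short family member that lacks the WD40 repeats, had −0.12 (0.605) and −0.10 (0.444). TLE6 had 0.74 (0.0976) and 0.42 (0.199). None of these 3 passed in either line. In PC3 the sign of TLE2 turned without NSI replicate 1 or siFOXA1 replicate 2, and that of AES without NSI replicate 2.

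**Figure D3:**
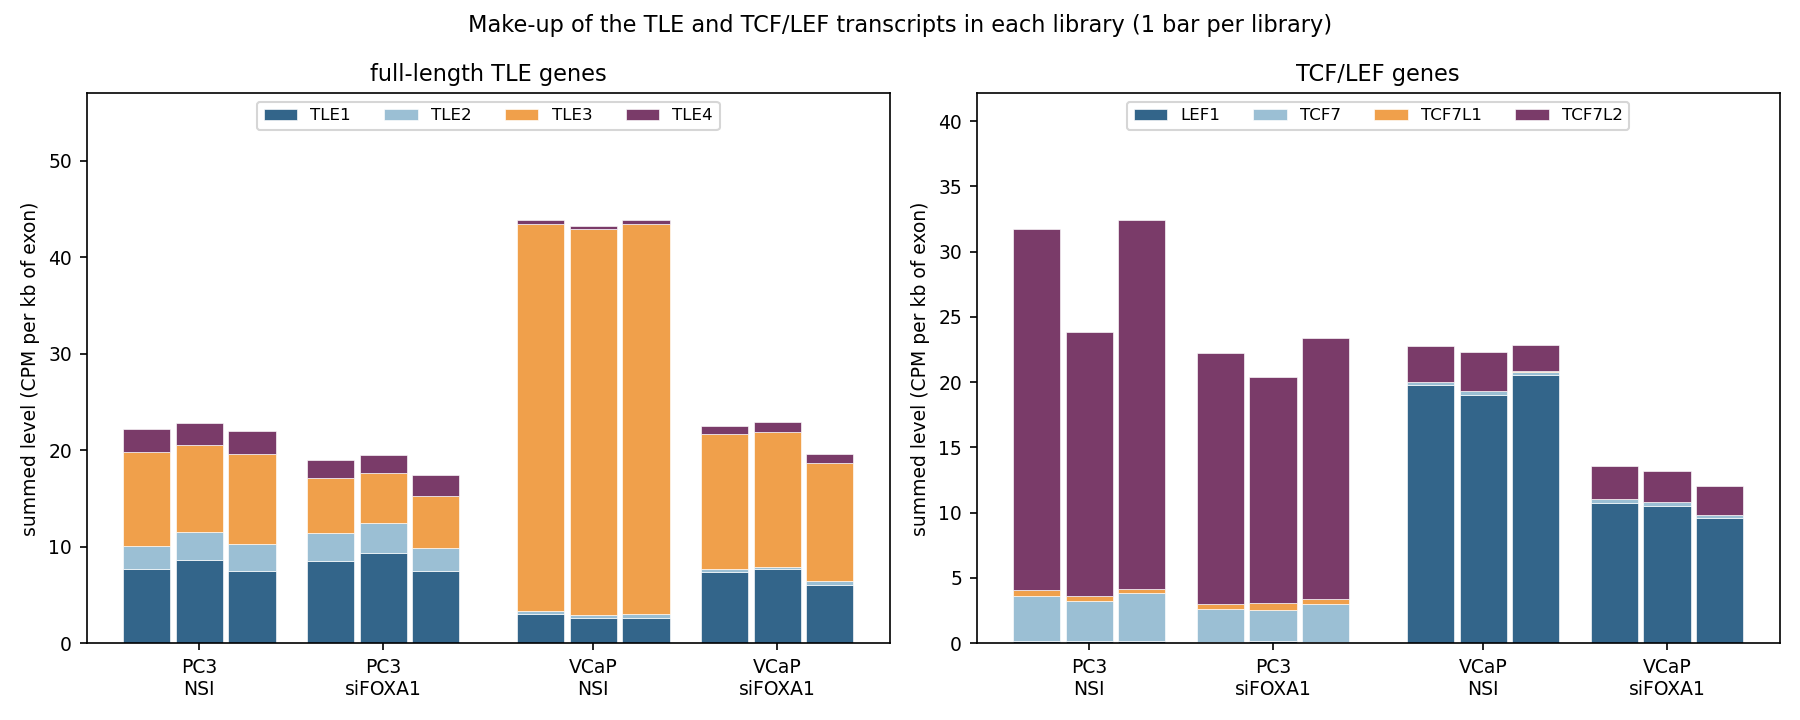
Summed level of the full-length TLE genes (left) and of the TCF/LEF genes (right) in CPM per kb of exon (y axis, from 0), 1 stacked bar per library, in order of replicate within each group. In VCaP the TLE sum goes from 43.6 in NSI to 21.7 in siFOXA1 with a larger TLE1 segment, and the TCF/LEF sum from 22.7 to 12.9 with LEF1 as the main segment in both groups.

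LEF1 encodes an HMG-box factor that binds Wnt target genes, and it fell in VCaP. The gene (ENSG00000138795.9_3) lies on the minus strand of chromosome 4, from 108968701 to 109090112. VCaP libraries held LEF1 at 83.1, 79.9 and 86.3 CPM with NSI and at 45.2, 44.1 and 40.3 CPM with siFOXA1, with no overlap. LEF1 fell by 0.94 (log2; SE 0.06, edgeR adjusted p 3.92e-06) to 52.0% of the NSI mean. In PC3 it was the lowest of the 10 genes, with levels of 0.715, 0.624 and 0.613 CPM with NSI and of 0.434, 0.610 and 0.490 CPM with siFOXA1, on 72 to 114 counts. The PC3 groups came within a narrow gap of each other, and the log2 fold change of −0.35 (SE 0.20, adjusted p 0.228) did not pass. The interaction was −0.56 (SE 0.16, adjusted p 0.0191).

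TCF7 encodes the HMG-box factor also called TCF-1. The gene (ENSG00000081059.19_3) lies on the plus strand of chromosome 5, from 133450402 to 133483920. TCF7 levels in PC3 were 14.2, 12.6 and 15.1 CPM with NSI and 10.4, 9.99 and 12.0 CPM with siFOXA1. The groups did not overlap, and TCF7 fell by 0.38 (log2; SE 0.11, edgeR adjusted p 0.0387) to 77.1% of the NSI mean. This call was lost in the fit of all 12 libraries (adjusted p 0.0518). Leaving out 1 library also ended it for NSI replicate 1 (0.0911) and NSI replicate 3 (0.134), and for siFOXA1 replicates 1 (0.141) and 2 (0.0766). VCaP libraries held TCF7 at 0.732, 0.996 and 1.04 CPM with NSI and at 1.19, 1.19 and 0.838 CPM with siFOXA1, on 38 to 60 counts per library. These groups overlapped, and at this depth no change was detectable (log2 fold change 0.21, SE 0.21, adjusted p 0.438). The interaction of 0.61 (SE 0.24) did not pass (adjusted p 0.0825), but passed without VCaP siFOXA1 replicate 3 (0.76, adjusted p 0.0374).

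TCF7L2, the factor also called TCF-4 in the Wnt field, was the main TCF/LEF gene of PC3. The gene (ENSG00000148737.16_4) lies on the plus strand of chromosome 10, from 114710009 to 114927437. TCF7L2 levels in PC3 were 119.8, 87.5 and 122 CPM with NSI and 83.0, 75.0 and 86.7 CPM with siFOXA1. NSI replicate 2 stood below the other NSI libraries and just above the highest siFOXA1 library. TCF7L2 fell by 0.43 (log2; SE 0.13, edgeR adjusted p 0.0451) to 74.2% of the NSI mean. The call was lost without any of the PC3 libraries other than NSI replicate 2: the adjusted p was 0.119 without NSI replicate 1, 0.150 without NSI replicate 3, and 0.119, 0.0963 and 0.0737 without siFOXA1 replicates 1, 2 and 3. VCaP libraries held TCF7L2 at 12.1, 13.1 and 8.83 CPM with NSI and at 10.8, 10.3 and 9.71 CPM with siFOXA1, with overlap because NSI replicate 3 was the lowest of all. The log2 fold change there was −0.14 (SE 0.14, adjusted p 0.428), and −0.30 without NSI replicate 3, which passed (adjusted p 0.0252). The interaction was 0.31 (SE 0.21, adjusted p 0.336).

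The summed TCF/LEF level of VCaP was 22.7 ± 0.29 CPM per kb in NSI and 12.9 ± 0.77 in siFOXA1 (SD, n = 3), with LEF1 holding 85.3% to 90.0% of it in NSI and 79.4% to 79.8% in siFOXA1. TCF7L2 made up most of the rest, 8.91% to 13.6% in NSI and 18.0% to 18.6% in siFOXA1. In PC3 the sum was 29.3 ± 4.75 in NSI and between 20.4 and 23.4 in siFOXA1, and the TCF7L2 share was 84.7% to 87.3% and 85.1% to 86.3%. The VCaP shares of LEF1 and TCF7L2 did not overlap between the groups, while those of TCF7L2 in PC3 did.

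AXIN2 encodes a scaffold of the destruction complex and is widely read as a target of beta-catenin signalling. The gene (ENSG00000168646.12_4) lies on the minus strand of chromosome 17, from 63524681 to 63557765. AXIN2 levels in PC3 were 1.69, 1.90 and 1.32 CPM with NSI and 2.80, 3.08 and 2.38 CPM with siFOXA1. The groups did not overlap, and AXIN2 rose to 168% of the NSI mean (log2 fold change 0.75, SE 0.17, edgeR adjusted p 0.0141). The call was lost without NSI replicate 3 (0.61, adjusted p 0.0553) and without siFOXA1 replicate 1 (0.74, adjusted p 0.0583). VCaP libraries held AXIN2 at 3.93, 3.29 and 3.13 CPM with NSI and at 3.57, 3.82 and 3.03 CPM with siFOXA1, with full overlap. The VCaP log2 fold change was 0.01 (SE 0.14, adjusted p 0.960), and its sign turned with DESeq2, with library size alone and without 4 of the 6 libraries. The interaction of −0.72 (SE 0.23, adjusted p 0.0343) passed, but it did not without PC3 NSI replicate 3 (0.0513), VCaP NSI replicate 1 (0.1005), VCaP NSI replicate 2 (0.0510), VCaP siFOXA1 replicate 1 (0.0600) or VCaP siFOXA1 replicate 3 (0.0908). The AXIN2 exons overlap CTD-2535L24.2, a gene on the same strand, over 28.4% of their length, so fragments there were divided between both genes. CTD-2535L24.2 had a mean of 0.409 CPM in PC3 NSI, 0.718 in PC3 siFOXA1, 1.20 in VCaP NSI and 1.14 in VCaP siFOXA1.

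RNF43 encodes a membrane ubiquitin ligase that removes Frizzled receptors from the cell surface, and it rose in both lines under all 15 alternatives run in each. The gene (ENSG00000108375.12_3) lies on the minus strand of chromosome 17, from 56429861 to 56494943. RNF43 levels in PC3 were 3.02, 2.55 and 2.79 CPM with NSI and 6.07, 5.69 and 6.19 CPM with siFOXA1. VCaP libraries held RNF43 at 23.6, 23.3 and 24.5 CPM with NSI and at 37.8, 41.3 and 39.0 CPM with siFOXA1. The groups were separate in both lines. RNF43 rose to 215% of the NSI mean in PC3 (log2 fold change 1.10, SE 0.12, edgeR adjusted p 0.00032) and to 165% in VCaP (0.72, SE 0.06, adjusted p 1.18e-05). The interaction of −0.36 (SE 0.13) did not pass (adjusted p 0.0564), although it did in 7 of 20 alternatives, DESeq2 (0.0103), library size alone (0.0186), and leaving out PC3 NSI replicate 1 (0.0207) or PC3 siFOXA1 replicate 2 (0.0135) among them. An antisense gene, RP5-1171I10.4, overlaps 16.6% of the RNF43 exons, and the PC3 counts ignored strand, so reads of the 2 genes there cannot be told apart. RP5-1171I10.4 had a mean of 17.9 CPM in PC3 NSI and 17.3 in PC3 siFOXA1, and of 1.0 and 0.70 CPM in VCaP, where strand was used.

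ZNRF3, a ubiquitin ligase of the same kind as RNF43, was the gene called in both lines with opposite signs. The gene (ENSG00000183579.15_3) lies on the plus strand of chromosome 22, from 29279580 to 29453475. VCaP libraries held ZNRF3 at 16.5, 18.1 and 17.0 CPM with NSI and at 26.3, 29.3 and 27.7 CPM with siFOXA1, with no overlap. ZNRF3 rose there to 161% of the NSI mean (log2 fold change 0.69, SE 0.07, edgeR adjusted p 3.99e-05). ZNRF3 levels in PC3 were 12.8, 10.8 and 12.0 CPM with NSI and 9.59, 8.43 and 9.96 CPM with siFOXA1. These groups did not overlap either, and ZNRF3 fell by 0.34 (log2; SE 0.11, adjusted p 0.0482) to 78.8% of the NSI mean. The PC3 call was near the threshold: the adjusted p was 0.138 without NSI replicate 1, 0.126 without NSI replicate 3, and 0.123, 0.0956 and 0.0635 without siFOXA1 replicates 1, 2 and 3. The interaction was 1.06 (SE 0.14, adjusted p 5.91e-05) and passed in all 20 alternatives.

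Of the 10 genes, 7 had an effect that differed between the lines (3 with a higher and 4 with a lower value in VCaP), where 22.2% of all 30425 genes tested in the fit of both lines did (11.3% higher, 11.0% lower). TLE1, TLE4 and ZNRF3 were the 3 with the higher VCaP effect, and TLE3, LEF1, AXIN2 and WNT5A the 4 with the lower. FOXA1, lowered further in VCaP, had an interaction of −1.93 (SE 0.15, adjusted p 3.12e-07). LEF1 and TCF7L2 overlap antisense or opposite-strand genes over 6.65% and 6.93% of their exons, RP11-558N14.1 and RP11-57H14.2, with means of 0.0852 and 3.15 CPM in PC3 NSI. TLE4 shares 4.89% of its exon bases with a processed pseudogene on the same strand, and RNF43 1.94% with SUPT4H1, a protein-coding gene on the same strand. SUPT4H1 had a mean of 56.5 CPM in PC3 NSI, 47.8 in PC3 siFOXA1, 26.6 in VCaP NSI and 19.7 in VCaP siFOXA1. Its part in the RNF43 counts was not tested. The other 5 genes, TLE1, TLE3, TCF7, ZNRF3 and WNT5A, shared no exon bases with another gene in the tables.

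A wider set of 105 Wnt pathway genes, sorted by role into 9 lists, was measured in the same fits. In PC3, 88 passed the filter and 29 were called (12 higher, 17 lower), or 33.0%, near the 27.0% of all genes. In VCaP, 83 passed and 53 were called (19 higher, 34 lower), or 63.9%, beside 45.8% of all genes. The PC3 count was 16 without NSI replicate 3, 15 without siFOXA1 replicate 1 and 17 without siFOXA1 replicate 3. The median log2 fold change of the genes tested was −0.04 in PC3 and −0.14 in VCaP.

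Among the other Wnt ligands, 1 rose and 4 fell of 13 tested in PC3, and 5 rose and 4 fell of 12 in VCaP. The called shares were 38.5% and 75%, against 27.0% and 45.8% of all genes tested. WNT10B fell in PC3, with a mean of 1.72 ± 0.44 CPM in NSI against 0.410 ± 0.048 in siFOXA1 (SD, n = 3; log2 fold change −2.06, edgeR adjusted p 0.00041), and also in VCaP (−0.61, 0.0375). WNT9A fell in PC3 from 12.6 to 7.82 CPM (−0.69, 0.0127). In VCaP, WNT16 rose from 2.00 ± 0.66 to 10.1 ± 2.44 CPM (2.34, 4.77e-05) and WNT5B, the close relative of WNT5A, from 1.57 to 3.31 CPM (1.08, 0.00017). WNT5B rose in PC3 as well (1.51, 0.0053), but its mean over the 6 PC3 libraries was under 1 CPM, below the level asked of named genes. WNT2, a ligand of the canonical route, fell in VCaP from 41.5 ± 3.77 to 11.4 ± 0.58 CPM (−1.86, 3.86e-07), and WNT8B from 3.69 to 2.19 CPM (−0.75, 0.0044). Of the genes for ligand release and for the R-spondins, 1 of 4 rose in PC3 and 1 of 2 in VCaP. That is 25% and 50% called, beside 27.0% and 45.8% of all genes tested. The VCaP gene was WLS, the carrier that brings Wnt proteins to the cell surface, which rose from 12.8 to 24.5 CPM (0.94, 0.00025).

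Among the receptors and co-receptors, 2 rose and 5 fell of 15 tested in PC3, and 3 rose and 9 fell of 17 in VCaP. Called shares were 46.7% and 70.6%, against 27.0% and 45.8% of all genes tested. FZD4, a Frizzled receptor, fell in PC3 from 105 ± 16.9 to 41.0 ± 6.09 CPM (log2 fold change −1.36, edgeR adjusted p 0.0004) and in VCaP from 454 ± 59.8 to 184 ± 44.3 CPM (−1.30, 0.00021). FZD8 fell in VCaP from 24.0 to 4.40 CPM (−2.45, 4.31e-07) and in PC3 (−0.75, 0.0169), while FZD7 rose in VCaP from 1.80 to 7.72 CPM (2.10, 7.87e-06). RYK, a WNT5A co-receptor, fell in PC3 from 68.1 to 31.2 CPM (−1.13, 0.0001) and rose in VCaP from 73.2 to 89.6 CPM (0.29, 0.0045). FZD1 and FZD5 rose in PC3, with log2 fold changes of 0.86 and 0.64, whereas FZD5 fell in VCaP (−0.64, 7.84e-05). Of the secreted and surface antagonists, 2 rose and 2 fell of 8 in PC3, and 1 rose and 2 fell of 5 in VCaP. That is 50% and 60% called, beside 27.0% and 45.8% of all genes tested. KREMEN1, a receptor for Dickkopf proteins, rose in both lines (0.51 in PC3 and 0.89 in VCaP). KREMEN2 fell in PC3 (−0.95), and SFRP1, a secreted Frizzled-like protein that binds Wnt ligands, fell in VCaP from 9.73 to 3.55 CPM (−1.46, 4.91e-06). SFRP1 rose in PC3 (1.46, 0.0467), where its mean over the 6 libraries was under 1 CPM, below the level asked of named genes.

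Of the 17 genes of cytoplasmic transduction and the destruction complex, 0 rose and 3 fell in PC3, and 3 rose and 6 fell in VCaP. Called shares were 17.6% and 52.9%, against 27.0% and 45.8% of all genes tested. DVL1, which relays the signal from Frizzled, and AXIN1, the constitutive relative of AXIN2, fell in PC3, with log2 fold changes of −0.67 and −0.56. GSK3B, the kinase that marks beta-catenin for degradation, rose in VCaP from 76.9 to 109 CPM (0.50, edgeR adjusted p 0.0050), and the scaffold APC rose by 0.41. TNKS2, a tankyrase that marks axins for removal, fell there by 0.45, and APC2 by 0.50, with a fall of APC2 in PC3 too (−0.38). Of the nuclear co-factors of beta-catenin, 1 rose and 2 fell of 10 in PC3, and 1 rose and 6 fell of 9 in VCaP. That is 30% and 77.8% called, beside 27.0% and 45.8% of all genes tested. BCL9 and PYGO1, which join beta-catenin in its activating complex, fell in VCaP by 0.67 and 0.75. HDAC1 and HDAC2, deacetylases that TLE proteins recruit, fell in both lines, by 0.45 and 0.34 in PC3 and by 0.38 and 0.27 in VCaP. The PC3 call of HDAC2 was lost in 3 of 15 alternatives. CTNNBIP1, which blocks the binding of beta-catenin to TCF factors, rose in PC3 (0.57) and in VCaP (0.23, lost in 9 of 15 alternatives).

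Of the transcriptional targets and feedback inhibitors, 1 rose and 1 fell of 9 in PC3, and 2 rose and 3 fell of 9 in VCaP. Called shares were 22.2% and 55.6%, against 27.0% and 45.8% of all genes tested. CD44 rose in VCaP from 5.37 to 23.9 CPM (log2 fold change 2.15, edgeR adjusted p 5.18e-07). APCDD1, a membrane inhibitor of the pathway, fell there by 1.43 and TNFRSF19 by 0.97. CCND1, the cyclin D1 gene, fell in PC3 by 0.28, and TCF4, an E-box factor that is not TCF7L2, rose by 0.43, and these calls were lost in 7 and 10 of 15 alternatives. Of the 9 planar cell polarity genes, 4 rose and 0 fell in PC3, and 3 rose and 4 fell in VCaP. That is 44.4% and 77.8% called, beside 27.0% and 45.8% of all genes tested. DAAM1, a formin downstream of Dishevelled, rose in PC3 from 15.4 to 29.2 CPM (0.92, 0.00018) and fell in VCaP from 80.6 to 45.4 CPM (−0.83, 6.33e-06). Its relative DAAM2 rose in VCaP from 0.286 to 2.64 CPM (3.21, 3.77e-06) and PRICKLE1 from 2.40 to 13.3 CPM (2.46, 3.59e-06). CELSR2 rose in PC3 (0.82) and fell in VCaP (−0.32, 0.0050), where VANGL1 fell as well (−0.68). Of the 105 genes, of which 88 were tested in PC3 and 83 in VCaP, 12 were called in both lines with matching signs. A further 7 were called with opposite signs. Of all 19261 genes tested in both lines, 15.7% were called in both, and 10.7% with matching signs. The share among the pathway genes tested in both lines was not computed. The 7 were WNT3, WNT7B, FZD5, RYK, SFRP1 (under 1 CPM in PC3), DAAM1 and CELSR2. The effect differed between the lines for 31 of the 94 pathway genes tested in the fit of both lines (16 higher and 15 lower in VCaP), or 33.0%, beside 22.2% of all genes. The interaction passed for all 7 genes with opposite calls and for 3 of the 12 with matching signs. Opposite calls in the same libraries make a passed interaction very likely, so this adds no separate support. The interaction did not pass for TLE2, AES or TLE6 (edgeR adjusted p 0.543, 0.953 and 0.682). Of the 42 results for genes named by rule in these lists (17 in PC3, 25 in VCaP), 8 lost the call in at least 1 alternative, 6 of them in PC3. Values given for a gene in a line where the rule did not name it are not in that count.

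**Figure D4:**
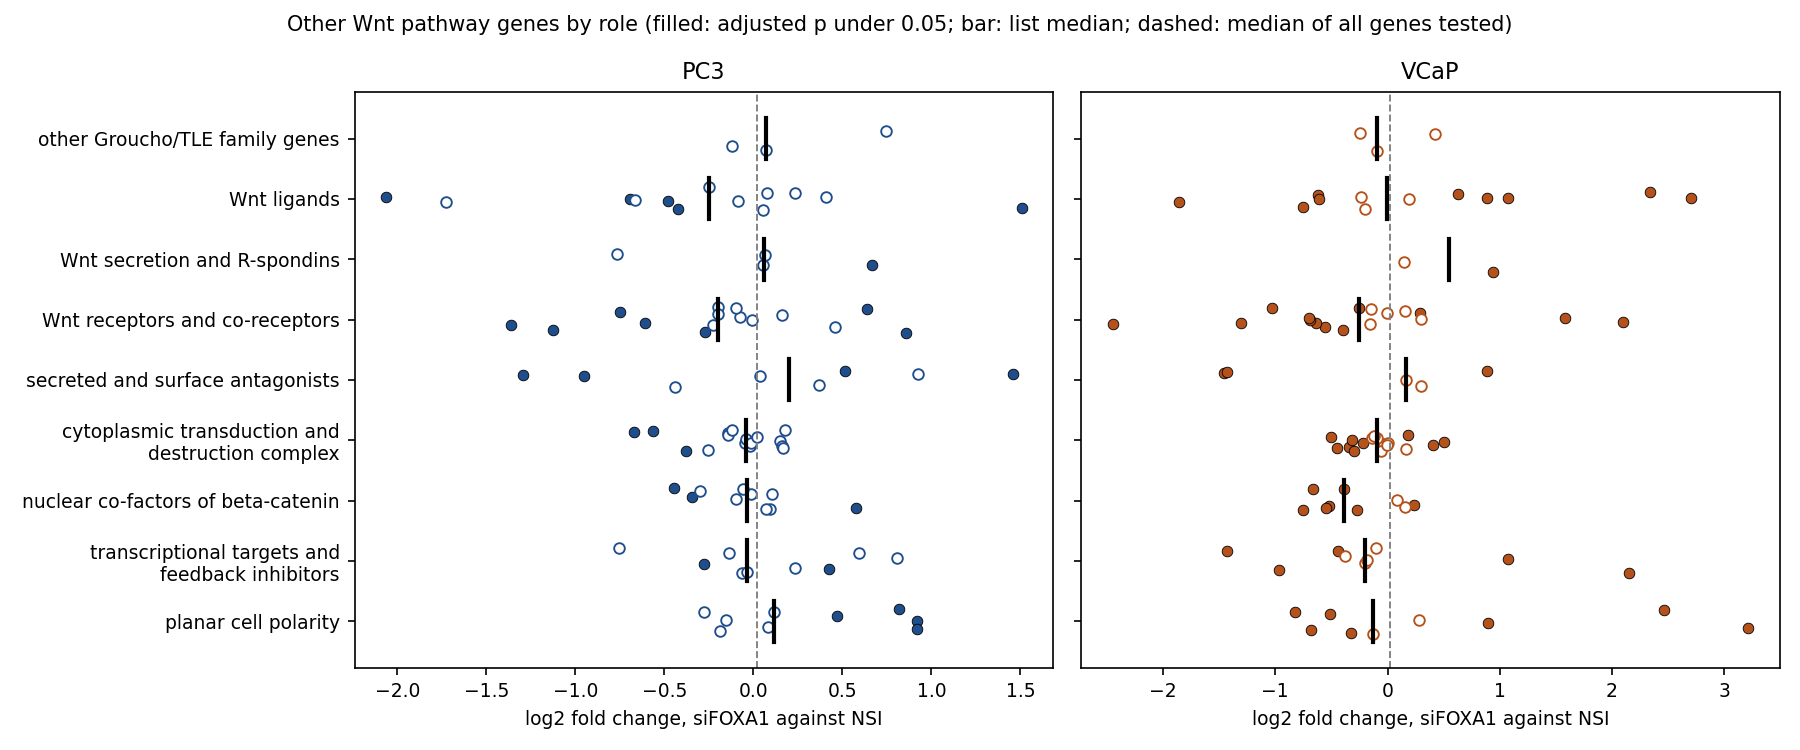
Log2 fold change of siFOXA1 against NSI (x axis) for the Wnt pathway genes tested in each role list (y axis) in PC3 (left) and VCaP (right), with a different x range per line. Filled points passed the test, black bars are list medians and the dashed line is the median of all genes tested (0.02), and 29 of 88 points in PC3 and 53 of 83 in VCaP are filled.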

How the data were processed

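Per the file headers, the authors made the deposited expected counts, 1 table per library, with featureCounts 2.0.0 over the exons of GENCODE v28lift37 on GRCh37, with multi-mapping and multi-gene fragments divided. The submitters' processing notes list STAR 2.7.3a and Subread 2.0.0. Counts were rounded to whole numbers. Each line was fitted on its 6 libraries in edgeR 4.0.16 (R 4.3.3) with TMM factors, filterByExpr and the two-sided quasi-likelihood test, adjusted by Benjamini-Hochberg over all genes tested, with calls at an adjusted p under 0.05. The difference between lines was the interaction term over 12 libraries. The SE was the log2 fold change divided by the square root of F. CPM used the TMM factors. The fit code was run on simulated counts with 200 changed genes, fewer than were called here, and the same spread for all genes. That run was a check of the code and not of the calls. Alternatives were DESeq2 1.42.0, other scalings, no filter, unrounded counts, a replicate block, a joint fit and leaving out each library.

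The rule named the 10 members, FOXA1, TLE2 and AES, and per role list and line the 2 largest rises and 2 largest falls among called genes averaging 1 CPM or more. It also took genes overlapping over 5% of a member's exons. TLE6, KRT8, EPCAM, SUPT4H1 and the pathway genes called with opposite signs in the lines were named outside the rule, after their values were seen. Members and lists were chosen with earlier results of these data known. The titles give groups the same replicate numbers. Deviations from the group means, correlated across genes, gave 0.52, 0.63 and 0.24 for same-numbered PC3 libraries. All were over 0.1, so by that rule the PC3 numbers were read as pairs. Differently numbered PC3 libraries also gave 0.4 (NSI 1 with siFOXA1 3) and 0.27 (NSI 3 with siFOXA1 1), and the rest were negative. The values therefore do not settle the pairing of PC3 replicates 1 and 3. In VCaP the same-numbered libraries gave 0.12, 0.05 and 0.39, and were not read as pairs. The main fits and those without 1 library did not use the pairs, which entered only the replicate block. PC3 and interaction p-values are therefore from unpaired tests unless the block is named. Total counts per library (in the report) limit the precision of low genes.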

Additional observations from a re-analysis of the deposited data

Results flagged for a closer look

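The results given here are those whose siFOXA1 effect differed between VCaP and PC3 by the interaction test itself (edgeR quasi-likelihood, adjusted p under 0.05); line, siRNA dose, medium and library kit cannot be told apart in it. TLE1 had a difference, VCaP minus PC3, of 1.28 and TLE4 of 1.73, both risen in VCaP. ZNRF3 had a difference of 1.06, having risen in VCaP and fallen in PC3. Its PC3 fall was near the threshold and was called in 8 of 15 alternatives. TLE3 had −0.77 and had fallen in both lines, more in VCaP. LEF1 had −0.56 and WNT5A −1.09, both fallen in VCaP. AXIN2 had −0.72, having risen in PC3, and did not pass when any 1 of 5 of the libraries was left out. FOXA1, the siRNA target, had −1.93.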

How the results depend on the processing

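Of 500 values of the 10 genes under alternatives, 452 kept their direction and their side of the threshold, 28 lost the call, 13 gained it and 7 changed sign without having been called. In VCaP the same 7 genes were called in every alternative. In PC3 the count of 6 moved to 3 with library size alone and with upper-quartile factors, and lay between 2 and 7 when 1 library was left out (2 without NSI replicate 3 or siFOXA1 replicate 1); TLE3 and RNF43 were called in every alternative. Over all genes the PC3 count of 7149 moved to 11297 with the replicate block (5734 higher, 5563 lower) and lay between 3945 and 7592 with 1 library left out. The count of 29 pathway genes called in PC3 lay between 15 and 35 with 1 library left out and was 38 with the replicate block, and the 31 with a difference between lines lay between 23 and 35 and was 41 with the block. The replicate block left the VCaP count of the 10 genes at 7 and moved the interaction count from 7 to 9. Beyond the calls it added (TLE4 and WNT5A in PC3, and, in the interaction, TCF7 at an adjusted p of 0.0468 and RNF43 at 0.0187), it changed no call of the 10 genes. Library size alone turned the interaction calls over all genes from 3427 higher and 3333 lower to 2643 and 3880. Signs turned, with no call, for AXIN2 in VCaP (−0.0049 with DESeq2, −0.0022 with library size alone, and −0.0614 to 0.101 with 1 library left out), and, with 1 library left out, for TLE1 in PC3 (−0.0178 to 0.147), TLE2 in PC3 (−0.0404 to 0.144) and AES in PC3 (−0.311 to 0.0161). TMM with NSI replicate 2 as the reference library, chosen after seeing the data, called the same 6 genes in PC3. The cause of these moves was not tested.

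With 3 libraries per group and 38 to 60 counts of TCF7 per VCaP library and 72 to 114 of LEF1 per PC3 library, small changes of these genes were not detectable.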
